A study of Mus musculus with 6 samples.

Results

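The genes described here encode 7 enzymes of cholesterol synthesis and the transcription factor that controls them. They are Hmgcs1, Mvd, Idi1, Fdps, Fdft1, Sqle, Lss and Srebf2, chosen by symbol through the RefSeq accession of each array probe, and they make up 8 of the 37153 genes and unnamed features on the array. None of the 8 is a receptor for cholesterol uptake, so uptake is described from a separate list. The 8 genes and the lists used below were chosen with earlier results of these data known. A share of all genes set beside a list therefore describes it and cannot test whether the list stands out. Expression was read on 1-colour Agilent arrays, 2 per group, in 3 groups of mouse cells. Muscle-derived stem cells (MDSC) are the slowest adhering fraction of hindlimb muscle cells, and came from 5 week old male mice. The first group came from Mstn-null mice, which lack the muscle growth inhibitor myostatin by their label, and another from wild-type (WT) mice, each as 2 isolations at passage 1. The comparison group was W4, an established male line of embryonic stem cells (ESC), at passages 12 and 15. No group was treated. The Mstn allele, the strain and the number of animals per isolation are not given in the sources used here. MDSC were expanded in medium with fetal bovine and horse serum and chicken embryo extract. The ESC had been kept on mouse embryonic fibroblast feeders, which a short plating step was meant to remove, and their colonies are labelled feeder free. Cell kind and culture conditions cannot be told apart in the comparisons with ESC.

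Cholesterol is built from acetyl-CoA through mevalonate, isoprenoids and squalene to lanosterol, which later enzymes turn into cholesterol. When sterols are scarce in the endoplasmic reticulum, the escort protein encoded by Scap carries the precursor of SREBP-2, the product of Srebf2, to the Golgi, where proteases release the factor that enters the nucleus. There it binds sterol regulatory elements (SRE) in the promoters of the pathway genes, usually beside sites for NF-Y, which reads the CCAAT box, and Sp1, which reads GC boxes. Insig proteins hold the complex back when sterols are plentiful, so the genes of the pathway tend to be regulated together.

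RefSeq promoter windows, from 250 bases before to 50 bases after the annotated start (GRCm38.p6), were at hand for 5 of the 8 genes. Those of Hmgcs1 (chr13:119690101-119690400, plus strand), Mvd (chr8:122443373-122443672, minus strand), Idi1 (chr13:8885356-8885655, plus strand) and Lss (chr10:76531355-76531654, plus strand) are shown. These are the 4 genes that passed the test with both MDSC genotypes pooled against ESC, as described below. Each reads 5′ to 3′ along the gene, and capitals mark matches on either strand to an SRE-like motif (TCACNCCAC) or to the CCAAT box (CCAAT, or ATTGG on the other strand).

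Hmgcs1: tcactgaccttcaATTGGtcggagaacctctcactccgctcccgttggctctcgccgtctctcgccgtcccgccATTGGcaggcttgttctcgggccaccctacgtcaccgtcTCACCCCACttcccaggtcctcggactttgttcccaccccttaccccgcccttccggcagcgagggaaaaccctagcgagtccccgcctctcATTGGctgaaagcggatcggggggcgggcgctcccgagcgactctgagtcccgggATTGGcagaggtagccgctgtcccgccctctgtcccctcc

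Mvd: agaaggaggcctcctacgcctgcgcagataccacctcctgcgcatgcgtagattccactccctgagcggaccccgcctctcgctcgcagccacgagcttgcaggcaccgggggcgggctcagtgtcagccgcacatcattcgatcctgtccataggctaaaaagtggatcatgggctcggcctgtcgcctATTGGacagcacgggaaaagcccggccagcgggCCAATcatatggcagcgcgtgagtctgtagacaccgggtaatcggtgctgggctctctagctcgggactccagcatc

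Idi1: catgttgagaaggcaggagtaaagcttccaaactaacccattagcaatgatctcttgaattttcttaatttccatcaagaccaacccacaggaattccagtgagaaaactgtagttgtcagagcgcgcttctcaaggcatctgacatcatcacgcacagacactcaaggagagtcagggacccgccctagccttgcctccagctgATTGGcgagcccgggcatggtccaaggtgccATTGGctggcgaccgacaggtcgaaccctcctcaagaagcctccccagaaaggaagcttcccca

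Lss: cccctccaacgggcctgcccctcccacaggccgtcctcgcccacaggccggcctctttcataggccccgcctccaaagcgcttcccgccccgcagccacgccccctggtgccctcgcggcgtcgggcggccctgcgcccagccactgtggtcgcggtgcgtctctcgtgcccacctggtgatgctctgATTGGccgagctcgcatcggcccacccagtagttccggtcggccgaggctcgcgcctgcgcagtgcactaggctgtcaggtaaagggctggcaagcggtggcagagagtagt

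All 5 windows, that of Srebf2 included, held a CCAAT box, against 37.4% of the 32851 promoter windows in the table. Hmgcs1 held 4, Mvd and Idi1 held 2 each, and Lss and Srebf2 held 1 each. The GC box (GGGCGG, either strand) was also found in all 5, against 35.7% of all windows. The SRE-like motif was found at position -137 of Hmgcs1 alone, and 1.24% of all windows held it. Of 15 windows of the other sterol synthesis enzymes followed below, 11 held a CCAAT box, 12 a GC box and 0 the SRE-like motif. The CCAAT and GC boxes are thus not particular to the 5 windows. Within those 5, no matches to the 3 motifs overlapped each other. A match describes the letters of the window only, and a window without one holds no match to these letters, whatever else it may hold.

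**Figure D1:**
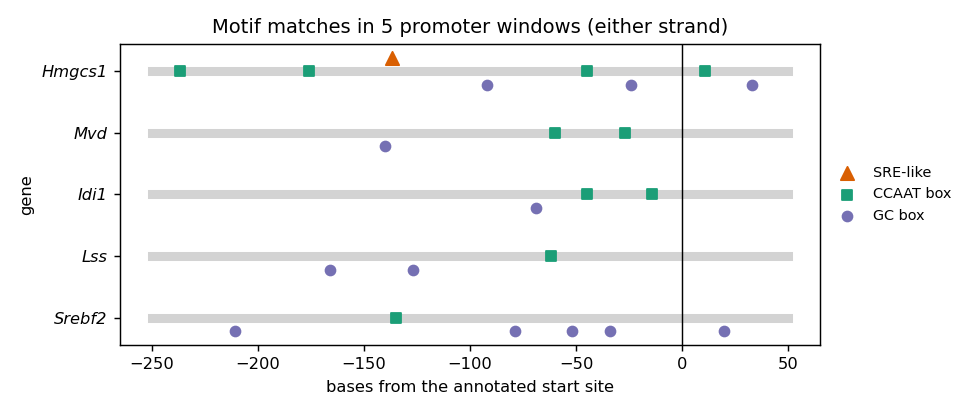
Positions of motif matches (x axis, bases from the annotated start site) in the 250 bases before and 50 bases after the start of 5 genes (rows). Triangles are SRE-like matches, squares CCAAT boxes and circles GC boxes. Every gene has at least 1 CCAAT box and 1 GC box, and only Hmgcs1 has an SRE-like match.

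Of the 59305 non-control spots per array, between 53.3% and 64.6% exceeded background clearly, and saturated spots numbered 0. All 8 genes were well above background on all 6 arrays, so none of their differences is a bound. The WT arrays lay alone on slide 1, whereas the Mstn-null and ESC arrays shared slide 2. Any difference between WT and another group therefore cannot be told apart from a difference between slides. The Mstn probe read -3.06 and -2.47 (log2) on the arrays labelled Mstn-null, against -4.90 and -6.71 on the WT arrays, where it was not well above background. It thus showed no loss of signal under the Mstn-null label. Its place relative to the deletion is not given in the sources used here, so it cannot check the genotype if it lies elsewhere in the gene. Every direction between genotypes below rests on the labels.

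The level of each gene is given as its log2 signal relative to the 75th percentile of the array. Levels of different genes come from different probes and are not set against each other. Hmgcs1, which encodes the synthase that makes HMG-CoA, read 3.93 and 4.15 in Mstn-null MDSC, 4.71 and 4.59 in WT MDSC, and 5.23 and 4.90 in ESC. The 3 groups did not overlap, with Mstn-null MDSC lowest and ESC highest. Mvd, the decarboxylase gene that yields isopentenyl diphosphate, read 0.25 and 0.52 in Mstn-null MDSC, 1.37 and 1.17 in WT MDSC, and 1.68 and 1.63 in ESC. Its groups stood in the same order and were also apart. Idi1 encodes the isomerase that makes the second isoprenoid building block. It read 2.10 and 2.22 in Mstn-null MDSC, 3.27 and 3.43 in WT MDSC, and 3.77 and 3.40 in ESC. The Mstn-null arrays lay more than 1 log2 unit below all others, while WT and ESC overlapped. Fdps, the farnesyl diphosphate synthase gene, read 4.25 and 4.45 in Mstn-null MDSC, 5.48 and 5.17 in WT MDSC, and 5.39 and 5.27 in ESC. Again both Mstn-null arrays were lowest and the other groups overlapped.

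Fdft1 encodes squalene synthase, which commits isoprenoids to sterols. It read 1.56 and 1.87 in Mstn-null MDSC, 2.64 and 2.26 in WT MDSC, and 2.72 and 2.43 in ESC. WT and ESC overlapped, and both Mstn-null arrays lay below them. Sqle, the squalene epoxidase gene, read 3.35 and 3.61 in Mstn-null MDSC, 4.29 and 3.97 in WT MDSC, and 3.94 and 3.87 in ESC. It was the only 1 of the 8 in which both WT arrays stood above both ESC arrays. Lss encodes lanosterol synthase, which closes the sterol rings, and read -0.45 and -0.70 in Mstn-null MDSC, 0.70 and 0.55 in WT MDSC, and 1.18 and 0.74 in ESC. Its groups did not overlap. Srebf2 read 0.18 and 0.55 in Mstn-null MDSC, 0.79 and 0.53 in WT MDSC, and 1.07 and 0.83 in ESC. For this gene, 1 Mstn-null array lay just above 1 WT array, and both ESC arrays were highest.

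**Figure D2:**
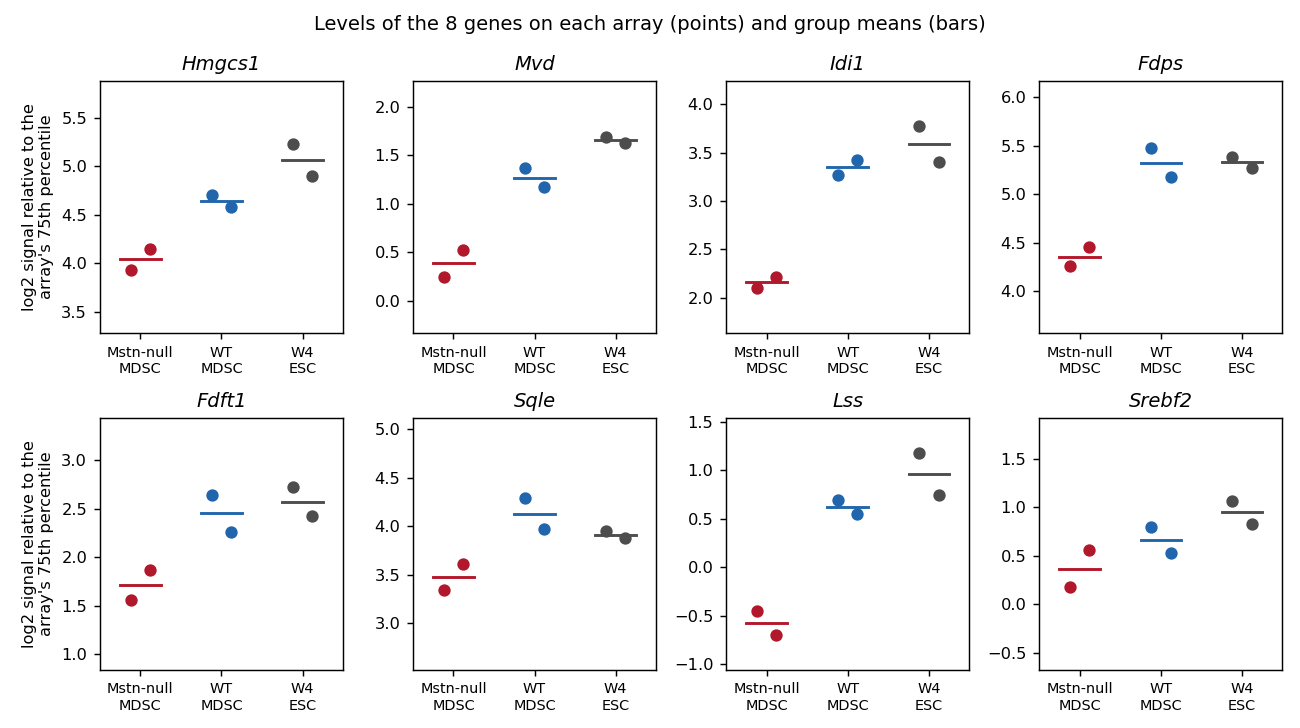
Level of each gene (y axis, log2 signal relative to the array's 75th percentile; every panel spans the same number of log2 units) in Mstn-null MDSC, WT MDSC and W4 ESC (x axis). Points are single arrays and bars the means of 2 arrays. Both Mstn-null arrays are below both ESC arrays in all 8 panels and below both WT arrays in 7.

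Mstn-null MDSC against ESC is the comparison in which all arrays compared shared a slide. Its SE and p-values also draw on the spread of the WT arrays from the other slide, since all 6 arrays entered the same fit. Transcripts of 6 of the 8 genes fell in Mstn-null MDSC, and none rose. Over all 25057 genes and features tested, 30.8% were called lower, 54.2% were called in either direction (adjusted p under 0.05 by two-sided limma with Benjamini-Hochberg adjustment), and 23.3% were called higher. The fall was 2.90-fold for Lss (limma log2 difference -1.54 with an SE of 0.22 over 2 and 2 arrays, adjusted p = 0.00479) and 2.69-fold for Idi1 (-1.43 ± 0.20, adjusted p = 0.00422). Mvd fell 2.41-fold (-1.27 ± 0.18, adjusted p = 0.00475). Hmgcs1 fell 2.03-fold (-1.02 ± 0.20, adjusted p = 0.0105), Fdps 1.96-fold (-0.97 ± 0.19, adjusted p = 0.0113) and Fdft1 1.81-fold (-0.86 ± 0.23, adjusted p = 0.0300). The 6 called genes include 1 that acts after squalene, Lss. Sqle (-0.43 ± 0.20, adjusted p = 0.125) and Srebf2 (-0.58 ± 0.22, adjusted p = 0.0745) did not pass. The median difference of the 8 genes was -0.999, against -0.12 over all genes tested. Both Mstn-null arrays lay below both ESC arrays in 8 of 8 genes, as they did in 44.2% of all genes.

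Those 6 calls were not equally firm. Without Mstn-null replicate 1, 3 genes (Mvd, Idi1 and Lss) were called, while Hmgcs1 (adjusted p = 0.0653), Fdps (adjusted p = 0.0696) and Fdft1 (adjusted p = 0.144) were not. Fdft1 also lost its call without Mstn-null replicate 2 (adjusted p = 0.0728), ESC replicate 1 (adjusted p = 0.107) and, narrowly, ESC replicate 2 (adjusted p = 0.0548). With median centring, Fdps (adjusted p = 0.0598) and Fdft1 (adjusted p = 0.108) no longer passed. That scaling raised the median of all genes by 0.22 on the log2 scale and turned the calls over all genes to 6253 higher and 5473 lower, against 5849 higher and 7725 lower with the 75th percentile. Normexp background correction brought Sqle (adjusted p = 0.0470) and Srebf2 (adjusted p = 0.0451) past the threshold as well. All 8 differences stayed negative under every scaling and background correction run.

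WT MDSC against ESC gave no call among the 8 genes, whereas 53.1% of all genes tested were called (25.9% lower and 27.1% higher). At an unadjusted p under 0.05 the count was also 0 of 8, against 60.7% of all genes. Hmgcs1 (-0.42 ± 0.20, SE, n = 2 and 2 arrays, limma adjusted p = 0.127), Mvd (-0.39 ± 0.18, adjusted p = 0.131) and Lss (-0.34 ± 0.22, adjusted p = 0.244) had the most negative differences. Fdps stood at -0.0027 ± 0.19 with a 95% interval from -0.49 to 0.49, and its sign turned with quantile normalization, median centring and normexp. Sqle stood at 0.22 ± 0.20 (adjusted p = 0.386). The intervals of the 8 genes ran from as low as -0.92 (Hmgcs1) to as high as 0.73 (Sqle). Changes of up to those sizes are therefore not excluded, and a missed threshold does not show equal levels. The median of the 8 was -0.26, against 0.03 over all genes.

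Mstn-null against WT MDSC asks whether the genotypes differ, with slide and genotype not to be told apart. All 8 genes were lower in Mstn-null MDSC, none past the threshold. No gene at all passed in this comparison, that is 0% of 25057 (limma, adjusted p under 0.05). At an unadjusted p under 0.05, 7 of the 8 genes were lower, against 10.5% of all genes lower, 4.19% higher and 14.7% either way. Lss was 2.29-fold lower (-1.20 ± 0.22, SE, n = 2 and 2 arrays, limma adjusted p = 0.114), Idi1 2.27-fold (-1.18 ± 0.20, adjusted p = 0.0993) and Fdps 1.96-fold (-0.97 ± 0.19, adjusted p = 0.122). Mvd stood at -0.88 ± 0.18 (adjusted p = 0.135), Fdft1 at -0.74 ± 0.23 (adjusted p = 0.251), Sqle at -0.65 ± 0.20 (adjusted p = 0.239) and Hmgcs1 at -0.61 ± 0.20 (adjusted p = 0.260). Srebf2 had the smallest difference, -0.30 ± 0.22 (adjusted p = 0.604). The median of the 8 was -0.81, against -0.12 over all genes. The 2 Mstn-null arrays lay below both WT arrays in 7 of 8 genes, as in 34.8% of all genes. Since the 8 genes were chosen with earlier results of these data known, none of these shares tests whether the set stands out. With each scaling run, and with any 1 array left out, all 8 remained lower, although the share of all genes that were lower was 63.3% in this scaling and 45.7% with median centring.

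**Figure D3:**
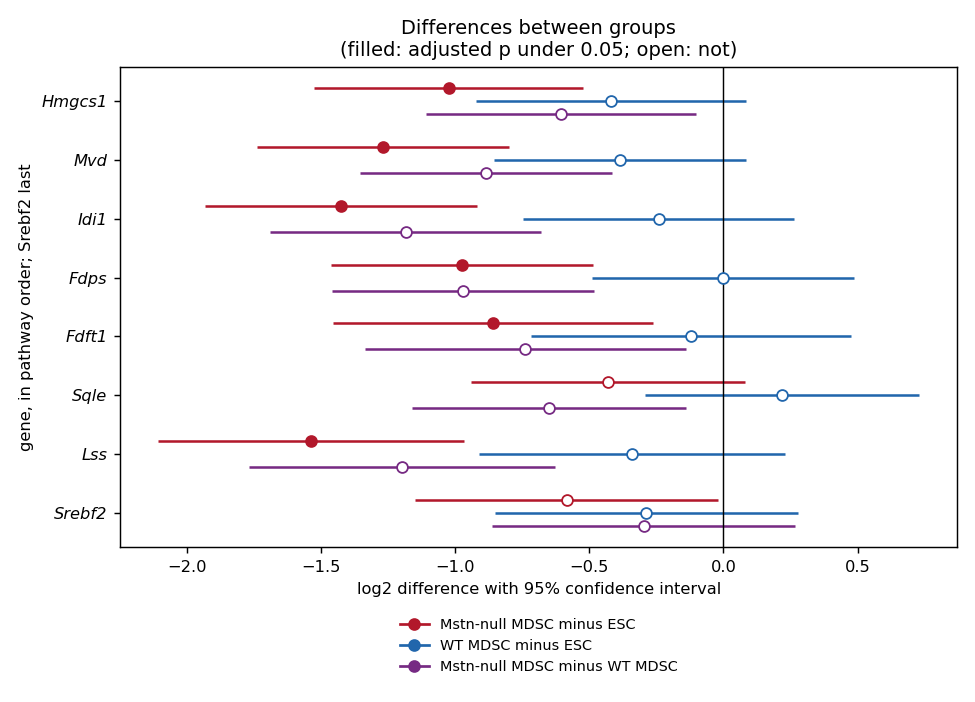
Log2 difference (x axis) of each gene (rows, in pathway order, Srebf2 last) in 3 comparisons, with 95% confidence intervals from the limma fit. Filled points passed an adjusted p of 0.05 and open points did not. Mstn-null MDSC minus ESC is filled for 6 genes, and the other comparisons are open for all 8.

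With both genotypes pooled as MDSC, 4 of the 8 genes fell against ESC, while 31.4% of all genes were called lower, 28.3% higher and 59.6% in either direction. They were Lss (-0.94 ± 0.19, SE, n = 4 and 2 arrays, limma adjusted p = 0.0115), Idi1 (-0.83 ± 0.17, adjusted p = 0.0114), Mvd (-0.83 ± 0.16, adjusted p = 0.00932) and Hmgcs1 (-0.72 ± 0.17, adjusted p = 0.0176). These means pool genotypes whose arrays did not overlap for the 4 genes, and they share their ESC arrays with the comparisons above. Hmgcs1 lost its call without Mstn-null replicate 1 (adjusted p = 0.0611), without ESC replicate 1 (adjusted p = 0.0708) and with median centring (adjusted p = 0.0597). Fdps missed the threshold at -0.49 ± 0.16 (adjusted p = 0.0520), and passed with normexp (adjusted p = 0.0274), with a variance trend (adjusted p = 0.0299), and on genes above background on all arrays (adjusted p = 0.0404). A fit within slide 2 holds no WT array and so repeats Mstn-null MDSC against ESC. Fdft1 (-0.49 ± 0.20, adjusted p = 0.0887), Srebf2 (-0.44 ± 0.19, adjusted p = 0.102) and Sqle (-0.11 ± 0.17, adjusted p = 0.618) did not pass under any setting that kept both genotypes, and Sqle turned to 0.037 with median centring.

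Fdft1 and Srebf2 each had a second, dimmer probe for the same accession, and these did not follow the first. The second Srebf2 probe, well above background on all arrays, read -0.64 and 1.00 in Mstn-null MDSC, -1.24 and -1.54 in WT MDSC, and -1.14 and -1.08 in ESC. By that probe both Mstn-null arrays lay above all others, with a wide gap between them. The second Fdft1 probe was well above background on 2 of 6 arrays and read -4.69 and -3.98 in Mstn-null MDSC, -3.99 and -5.41 in WT MDSC, and -6.13 and -6.57 in ESC. As the mean over its probes, Fdft1 in Mstn-null MDSC against ESC turned to 0.58 (adjusted p = 0.246), and Srebf2 to 0.35 (adjusted p = 0.445) against ESC and to 0.64 (adjusted p = 0.551) against WT. The direction of Srebf2 thus depends on the probe. The Fdft1 values over both probes are largely differences against background and settle no direction. Each of the other 6 genes had a single probe.

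The later and the remaining enzymes of sterol synthesis were followed with a list of 14 genes. Of these, 5 fell (35.7%) and 2 rose (14.3%) in Mstn-null MDSC against ESC (median -0.29), where 30.8% of all genes fell and 23.3% rose. In WT MDSC against ESC, 2 fell (14.3%) and 7 rose (50%; median 0.58), where 25.9% of all genes fell and 27.1% rose. Unlike the 8 genes, this list held large changes of opposite sign. Lbr, which encodes a sterol reductase that is also the lamin B receptor of the nuclear envelope, fell by 2.84 in Mstn-null MDSC and by 2.32 in WT MDSC. Hsd17b7, a ketoreductase gene of the demethylation steps, rose by 1.91 and 2.61 in the same comparisons. In WT MDSC against ESC, Sc5d, the gene of a sterol desaturase, rose by 1.85. Over the 10 settings run for lists, made of 4 processing alternatives and each array left out, 4 to 6 of the 14 fell and 1 to 4 rose in Mstn-null MDSC, while 1 to 4 fell and 2 to 8 rose in WT MDSC. The count that rose in Mstn-null MDSC was 1 without Mstn-null replicate 2 or ESC replicate 1, and 4 with quantile normalization or normexp. The count that rose in WT MDSC was 2 without WT replicate 1, and 4 with median centring or without either Mstn-null array or ESC replicate 1. The count that fell there was 1 without any 1 MDSC array, and 4 with quantile normalization or normexp.

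Between genotypes, all 14 of these enzymes were lower in Mstn-null MDSC (median -0.72), as were 63.3% of all genes, and none passed the threshold. At an unadjusted p under 0.05, 10 of the 14 were lower and 0 higher, against 10.5% of all genes lower and 4.19% higher. The largest difference was that of Cyp51, the lanosterol demethylase gene, at -1.46 ± 0.20 (SE, n = 2 and 2 arrays, limma adjusted p = 0.0775). Cyp51 read -0.74 and -0.77 in Mstn-null MDSC, 0.72 and 0.69 in WT MDSC, and -0.06 and -0.48 in ESC. With median centring 12 of the 14 were lower, as without WT replicate 1, and 13 without Mstn-null replicate 1. Of all genes, 45.7% were lower with median centring. Cyp51 was chosen as an example after its values were seen.

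The genes that process and restrain SREBP were followed with a list of their own. Of 9 such genes, 4 rose and 0 fell in Mstn-null MDSC against ESC (median 0.39), as in WT MDSC against ESC (median 0.47). The 44.4% that rose compares with 23.3% of all genes in Mstn-null MDSC and 27.1% in WT MDSC. Of all genes, 30.8% and 25.9% fell. Insig2, which encodes a protein that holds SREBP back, rose by 1.68 in Mstn-null MDSC and by 1.87 in WT MDSC. Scap rose by 1.17 in Mstn-null MDSC, a call that ended without Mstn-null replicate 2 (adjusted p = 0.0510). Srebf1, which encodes the SREBP-1 forms that act mainly on fatty acid genes, rose by 1.23 in WT MDSC (adjusted p = 0.00468). In Mstn-null MDSC it rose by 0.60 (adjusted p = 0.0353), a call that ended without either Mstn-null array, either WT array or ESC replicate 2 (adjusted p from 0.0603 to 0.179). The count that rose in Mstn-null MDSC was 2 without Mstn-null replicate 2. Between genotypes 7 of the 9 genes were lower in Mstn-null MDSC with a median of -0.10, but with median centring 4 of the 9 were lower and the median was 0.060. Of all genes, 63.3% were lower, and 45.7% with median centring.

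Of 14 genes of cholesterol uptake and transport, 8 rose (57.1%) and 0 fell in Mstn-null MDSC against ESC (median 0.84). In WT MDSC against ESC, 7 rose (50%) and 0 fell (median 0.75). Of all genes, 23.3% rose and 30.8% fell in Mstn-null MDSC, and 27.1% rose and 25.9% fell in WT MDSC. Lrp1, an endocytic receptor gene, read 4.83 and 5.55 in Mstn-null MDSC, 5.07 and 4.43 in WT MDSC, and 1.72 and 0.08 in ESC. Its rise was 4.28 in Mstn-null MDSC and 3.85 in WT MDSC. Lipa, the gene of the lysosomal lipase that frees cholesterol from its esters, rose by 2.94 and 2.40. Vldlr rose by 2.21 in Mstn-null MDSC, but was no longer called when 1 of 3 arrays was left out, namely either Mstn-null array or ESC replicate 2 (adjusted p from 0.0586 to 0.0997). Vldlr rose by 2.17 in WT MDSC, a call lost on omitting WT replicate 1 (adjusted p = 0.0952), and likewise on omitting ESC replicate 2 (adjusted p = 0.0843). With 1 array left out or other processing, the count of genes that rose ran from 3 to 9 for both genotypes. For Mstn-null MDSC it was 3 without Mstn-null replicate 2, 4 without Mstn-null replicate 1 and 5 without ESC replicate 2. For WT MDSC it was 3 without ESC replicate 2, and 4 without WT replicate 1 or either Mstn-null array. Between genotypes this list had a median of 0.044, with 5 of 14 genes lower, and without Mstn-null replicate 2 a median of -0.17, with 8 of 14 lower. Of all genes, 63.3% were lower, and 60.9% without that array.

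Among 11 tested genes of cholesterol efflux, storage and oxysterols, 6 rose (54.5%) and 1 fell (9.09%) in Mstn-null MDSC against ESC (median 1.03). In WT MDSC, 5 rose (45.5%) and 2 fell (18.2%; median 0.95). Of all genes, 23.3% rose and 30.8% fell in Mstn-null MDSC, and 27.1% rose and 25.9% fell in WT MDSC. Nr1h3, the gene of the oxysterol receptor LXR alpha, rose by 2.63 and 2.35. Ch25h, which makes 25-hydroxycholesterol, an oxysterol that restrains SREBP processing, read 0.78 and 4.03 in Mstn-null MDSC, 1.01 and -0.44 in WT MDSC, and -3.67 and -3.23 in ESC. All MDSC arrays lay above the ESC arrays, with a wide gap between the Mstn-null isolations. Ch25h rose by 5.86 in Mstn-null MDSC against ESC (adjusted p = 0.0112), which was no longer called on leaving out ESC replicate 1 (adjusted p = 0.0559) and likewise ESC replicate 2 (adjusted p = 0.0502). In WT MDSC it rose by 3.73 (adjusted p = 0.0434), and lost its call with normexp (adjusted p = 0.0853) and without either WT or either ESC array (adjusted p from 0.0709 to 0.170). The count that rose was 3 in Mstn-null MDSC without either ESC array, and 3 in WT MDSC without WT replicate 1 or either ESC array. Between genotypes, 10 of the 11 genes were higher in Mstn-null MDSC (median 0.28), none past the threshold, while 63.3% of all genes were lower.

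Other branches that share precursors or regulators varied in both directions. The non-sterol isoprenoid branch uses farnesyl and geranylgeranyl diphosphate for protein prenylation, ubiquinone and dolichol. Of its 14 genes listed, 4 fell (28.6%, against 30.8% of all genes) and 5 rose (35.7%, against 23.3%) in Mstn-null MDSC against ESC. Their medians were -0.30 there and -0.071 between genotypes, which turned to 0.089 with median centring. Pdss1, a ubiquinone side-chain gene, fell by 2.24 and Zmpste24, a prenyl-protein protease gene, rose by 1.58. The count that rose was 1 without Mstn-null replicate 2, 2 without Mstn-null replicate 1 or either ESC array, and 3 without either WT array. Of 12 fatty acid synthesis genes, 6 fell (50%) and 3 rose (25%) in Mstn-null MDSC against ESC, where 30.8% of all genes fell and 23.3% rose. Acacb was down by 3.53, and Scd1 (2.69) and Me1 (2.45) were up. The count that fell was 3 without Mstn-null replicate 1 and with median centring. Between genotypes, 11 of those 12 were lower in Mstn-null MDSC (median -0.44), 6 of them at an unadjusted p under 0.05 and none past the threshold. Of all genes, 63.3% were lower, and 10.5% were lower at that unadjusted p.

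**Figure D4:**
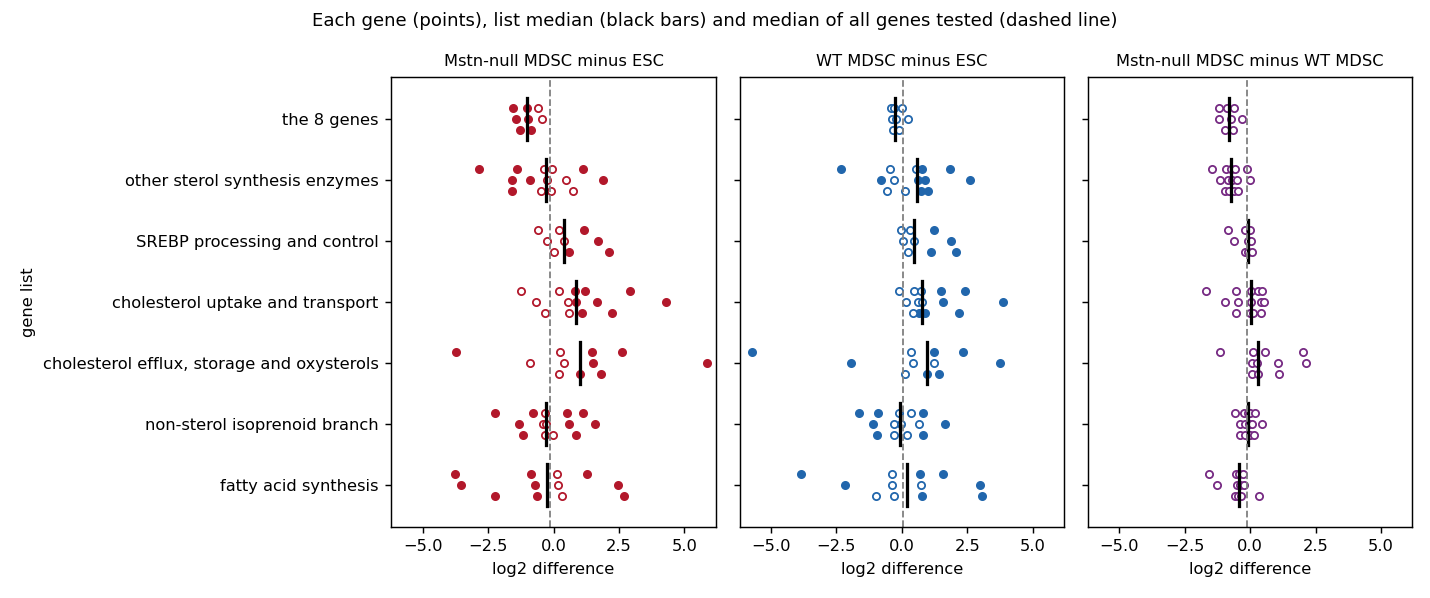
Log2 difference (x axis) of every tested gene (points) in 7 lists (rows) for 3 comparisons (panels). Filled points passed an adjusted p of 0.05, open points did not, black bars are list medians and the dashed line is the median of all genes tested. The medians of the 8 genes are -0.999, -0.26 and -0.81 from left to right, and in the right panel no point is filled.

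These are whole cultures, in which fewer cells of a type and less RNA per cell cannot be told apart. Of 11 macrophage markers, 10 were higher in Mstn-null than in WT MDSC and 10 had an unadjusted p under 0.05 (4.19% of all genes were higher at that p), with none past the threshold. Their mean log2 level was 2.08 and 3.94 in Mstn-null MDSC, 0.51 and -0.95 in WT MDSC, and -3.06 and -2.61 in ESC. Macrophage means were thus highest in Mstn-null MDSC, where the mean of the 8 genes was lowest. The mean of the 8 was 1.90 and 2.09 in Mstn-null MDSC, 2.91 and 2.71 in WT MDSC, and 3.12 and 2.88 in ESC, with WT and ESC overlapping. Within each MDSC genotype, the isolation with the higher macrophage mean also had the higher mean of the 8 genes. Muscle markers, 10 of them tested, averaged -0.44 and -0.88 in Mstn-null MDSC, 2.84 and 0.051 in WT MDSC, and -3.01 and -2.83 in ESC. All 10 were lower in Mstn-null than in WT MDSC, as were 63.3% of all genes, and none passed. Myf5 was well above background on no array, and Pax7 on none of the Mstn-null arrays, 1 WT array and 1 ESC array. Fibroblast markers averaged 5.78 and 6.09 in Mstn-null MDSC, 5.85 and 4.64 in WT MDSC, and 2.14 and -0.50 in ESC. All 12 were well above background on every MDSC array and on ESC replicate 1, and 10 of 12 on ESC replicate 2. All 12 pluripotency markers fell against ESC in MDSC of either genotype, where 30.8% (Mstn-null) and 25.9% (WT) of all genes fell. The part of cell makeup in the differences of the 8 genes was not tested.

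**Figure D5:**
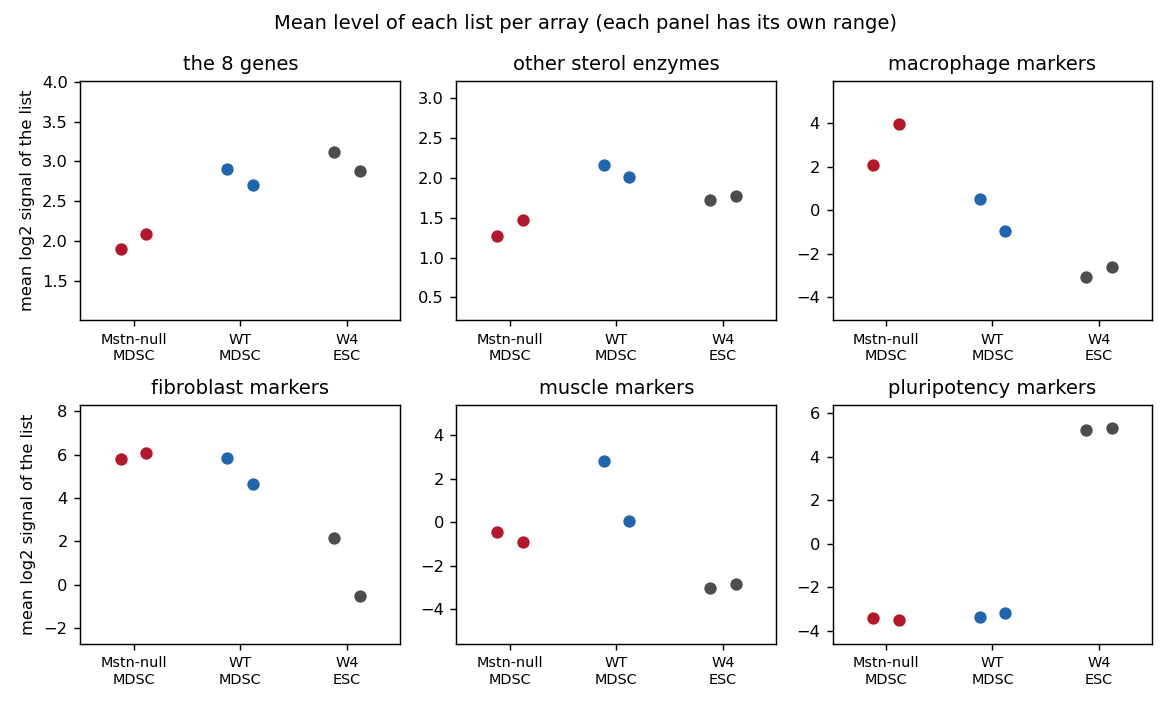
Mean log2 level (y axis; panels differ in range) of each list on each array (points) by group (x axis). The 8 genes and the other sterol enzymes are lowest on the Mstn-null arrays, where macrophage markers are highest.

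Apart from the lists, the genes whose centred profile over the 6 arrays lay nearest to the mean profile of the 8 were Rragd, Gpd2, Cadm4, Sugp2 and Krtap4-1. Their root mean square differences from it were 0.14, 0.14, 0.14, 0.15 and 0.16 log2 units, among 12308 named genes above background on all arrays. The 8 genes themselves lay between 0.091 (Fdft1) and 0.26 (Lss) from their own mean. The median of 19853 genes and features above background on all arrays was 0.61. Each of the 8 is part of that mean, which by itself brings it nearer, so this contrast cannot show whether the 8 vary together. Idi1 (0.22), Srebf2 (0.23), Sqle (0.25) and Lss lay farther from the mean than the genes named above, while Hmgcs1, Mvd, Fdps and Fdft1 lay nearer. Among the other sterol enzymes, Pmvk (0.27), the phosphomevalonate kinase gene, was near the mean profile, with 1.65% of genes nearer. Hsd17b7 (1.35) was far from it, with 89.6% of genes nearer. These profiles rest on 6 arrays in 3 groups.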

How the data were processed

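RNA labelled with Cy3 was hybridised to Agilent arrays, per the labels' protocols. Spot intensities are those the authors deposited. They were extracted with Feature Extraction, whose version is 10.7.1.1 in the file headers but 9.1 in the submitters' processing notes, and were background corrected within, not scaled between, arrays.

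Each value is the log2 intensity less the 75th percentile of its array (controls excluded), computed here from the deposited intensities without the 100 to 122 outlier-flagged spots. Accessions gave 26404 of 55658 probes 1 symbol in a RefSeq table (GRCm38.p6), and since the array design is on mm9, gene coordinates are given for promoter windows only. The brightest probe stood for its gene. Testing required both arrays of some group to be well above background, which 25057 of 37153 genes and features met. Group means were fitted with limma 3.58.1 in R 4.3.3 (lmFit, eBayes), with p-values adjusted over everything tested and the steps tested on simulated data. All 6 arrays entered the same fit with a spread shared by all groups, so an SE also draws on any group not compared. Exact permutation of 2 against 2 arrays cannot go below p = 0.333 and was not used. MDSC isolations are labelled separate and ESC arrays are passages of 1 line, so p-values measure only the spread between these arrays.

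The 8 genes and all lists were chosen with earlier results of these data known. Examples from the other lists are among the 3 largest called differences of genes above background on all arrays compared, unless said otherwise, and some list genes are not reported here by name. Nearness was ranked by root mean square difference of centred values among genes in no list, without provisional names. Alternatives were quantile and median scaling, normexp (median signal, offset 50), other dim-probe filters, flagged spots kept, the mean over probes, a variance trend with robust fit, fits of the compared groups alone, each array left out, and replicate blocks.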

Additional observations from a re-analysis of the deposited data

Results flagged for a closer look

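In 2 of 82 genes of the cholesterol and lipid lists, both Mstn-null arrays lay on one side of both ESC arrays and both WT arrays on the other, as in 2.36% of all genes tested. The count is close to that share, so the pattern is not particular to these lists. Sqle was lower in Mstn-null MDSC and higher in WT MDSC than in ESC, with a log2 difference between genotypes of -0.65 ± 0.20 (SE, n = 2 and 2 arrays, limma adjusted p = 0.239). Cyp51 showed the same pattern, with -1.46 ± 0.20 (adjusted p = 0.0775). Neither difference between genotypes passed the threshold, and WT arrays lay alone on their slide, so genotype and slide cannot be told apart.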

How the results depend on the processing

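The count of the 8 genes called in Mstn-null MDSC against ESC was 6, and ran from 3 to 6 with 1 array left out, while the count over all genes ran from 7973 to 12912. In MDSC against ESC the 8 genes gave 3 to 5 calls under the settings that kept both genotypes, and in WT MDSC against ESC and between genotypes 0 under all. Quantile normalization called 25 genes between genotypes, none of the 8, where the 75th percentile called 0 (limma; 3671 at an unadjusted p under 0.05). Signs turned in 4 genes. With quantile normalization, median centring and normexp, Fdps in WT MDSC against ESC stood at 0.049, 0.060 and 0.033, and ran from -0.16 to 0.15 with 1 array left out. Fdft1 there ran from -0.31 to 0.068. Median centring turned Sqle in MDSC against ESC to 0.037. As the mean over probes, Fdft1 stood at 0.67, 0.58 and 0.76 in MDSC, Mstn-null and WT MDSC against ESC, and Srebf2 at 0.035 in MDSC and 0.35 in Mstn-null MDSC against ESC and 0.64 between genotypes. The cause was not tested, apart from the second probes reported above. Counted over all 8 genes and all comparisons, 4 single-gene values turned sign with 1 array left out. Under the other settings 284 values kept their direction and their side of the threshold. Of the rest, 10 turned sign, 7 gained a call and 3 lost it. The median of all genes moved by 0.22 (Mstn-null against ESC), 0.16 (between genotypes) and 0.14 (MDSC against ESC) with median centring. The isolation number as a replicate block gave 0 calls among the 8 genes and 0 over all genes between genotypes. Same-numbered isolations deviated in opposite directions across genes (r = -0.40), and the crossed block, added after seeing the data, also gave 0 and 0. All 8 genes were well above background and unsaturated on every array, by the probe used.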
